A study of Homo sapiens with 2 samples.

Results

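BCAR1, PTK2 and EGFR, genes of adhesion signalling, were examined for chromatin bound by ZMYND8 in MDA-MB-231 mammospheres, the floating sphere cultures of an established triple-negative breast cancer line. ZMYND8, a reader of histone acetylation and methylation, was profiled by ChIP-seq with the same antibody in 2 libraries. The parental spheres were wildtype, the other spheres were a ZMYND8 knockout of the same line, and both were grown in MammoCult medium. The values are summits, the point of highest enrichment in each peak, listed separately for each library with a score (a −log10 p or q value), and no list of read counts was used here. The labels do not say whether the knockout line is a clone, summit lists carry no expression by which the line or the knockout could be checked, and with 1 library per genotype no difference has a replicate check. The peak names in both lists carry replicate number 2, which the labels do not give, and other replicates were not analysed here. Members were all summits in the hg19 span of each gene widened by 5 kb at both sides. BCAR1 spans 75262928 to 75301951 of chromosome 16 (minus strand, 16q23.1), PTK2 spans 141668481 to 142011412 of chromosome 8 (minus strand, 8q24.3), and EGFR spans 55086725 to 55275031 of chromosome 7 (plus strand, 7p11.2). The genes were chosen by their summits in these same lists, so their counts are a description and carry no test. The widened spans held 77 of the 45924 parental summits (0.168%) and 0 of the 385 knockout summits. Closest to the limit of a widened span were, inside, a PTK2 summit 829 bp from it (score 4.71) and, outside, one 3467 bp beyond the same PTK2 limit (score 9.50); the nearest outside lay 8493 bp beyond for EGFR (1.91) and 10460 bp for BCAR1 (3.25).

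The proteins act in a shared pathway. EGFR is a receptor tyrosine kinase for EGF and related ligands and a well known surface receptor of triple-negative breast cancer cells. PTK2 encodes focal adhesion kinase (FAK), which is activated where integrins attach a cell to its matrix and which, with SRC kinases, signals to migration and survival. BCAR1 encodes p130Cas, a scaffold that FAK and SRC phosphorylate and that then recruits CRK; its gene was named for anti-oestrogen resistance in breast cancer cells. The DNA next to starts of BCAR1 and EGFR is shown first, since whether BCAR1 had a promoter summit depended on the start used.

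Sequences of the 250 bases before a start were taken from RefSeq (GRCh38.p14) for BCAR1 and EGFR, and are printed 5′ to 3′ on the gene's strand with CpG dinucleotides in capitals. Their coordinates belong to that build and were not matched to the hg19 summits. The most upstream start of each gene is shown, with the BCAR1 start that held the most CpGs.
BCAR1 most upstream start, chr16:75268008-75268257 (minus strand): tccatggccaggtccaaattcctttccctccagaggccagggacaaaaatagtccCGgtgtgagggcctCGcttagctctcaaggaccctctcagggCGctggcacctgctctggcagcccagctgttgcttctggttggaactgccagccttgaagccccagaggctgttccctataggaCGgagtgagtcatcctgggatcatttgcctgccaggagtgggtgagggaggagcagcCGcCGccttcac
BCAR1 CpG-rich start, chr16:75266008-75266257 (minus strand): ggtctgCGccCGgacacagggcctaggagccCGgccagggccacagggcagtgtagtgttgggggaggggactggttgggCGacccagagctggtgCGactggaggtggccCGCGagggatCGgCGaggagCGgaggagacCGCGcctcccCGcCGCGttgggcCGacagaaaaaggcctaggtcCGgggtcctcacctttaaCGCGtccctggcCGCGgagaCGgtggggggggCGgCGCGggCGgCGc
EGFR most upstream start, chr7:55018767-55019016 (plus strand): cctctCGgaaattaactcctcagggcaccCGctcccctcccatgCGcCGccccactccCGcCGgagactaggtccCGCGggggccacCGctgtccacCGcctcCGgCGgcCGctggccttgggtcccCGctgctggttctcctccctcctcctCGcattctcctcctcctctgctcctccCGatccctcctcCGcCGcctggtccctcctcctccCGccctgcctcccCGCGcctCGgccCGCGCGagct
RefSeq lists 5 starts for BCAR1, and they differed in base composition. The most upstream held 6 CpGs, the CpG-rich one 27 and the others 5, 8 and 12. The median over 35116 promoters of all genes was 11. EGFR held 25 CpGs before its most upstream start, a number that 21.6% of all promoters reached, and only 1 before its other start. The GC box, searched as GGGCGG on both strands, was found 2 times in both CpG-rich sequences and not before the most upstream BCAR1 start. It occurred in 42.6% of all promoters.

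BCAR1 had the densest parental summits of the 3 genes, EGFR came next and PTK2 was the sparsest. BCAR1 held 26 summits (exact Poisson 95% interval 17.0 to 38.1, counting error only, as for all intervals here) in 49.0 kb, or 5.30 per 10 kb (3.46 to 7.77). EGFR held 31 (21.1 to 44.0) in 198.3 kb, or 1.56 per 10 kb (1.06 to 2.22). PTK2 held 20 (12.2 to 30.9) in 352.9 kb, or 0.567 per 10 kb (0.346 to 0.875). The parental list as a whole gave 0.151 per 10 kb over chromosomes 1 to 22 and X, so the densities were 35.1, 10.3 and 3.75 times that level.

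Windows of the same length, laid end to end over the genome, give the background for these counts. At least 26 parental summits were found in 0.0468% of 61925 windows as long as the BCAR1 locus, 73.9% of which held none. For EGFR, 0.994% of 15298 windows held at least 31. For PTK2, 6.96% of 8594 windows held at least 20, and the median window held 2. Each locus was placed on its gene and the windows were not, and windows include unsequenced gaps, so these shares only describe where the loci stand.

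**Figure D1:**
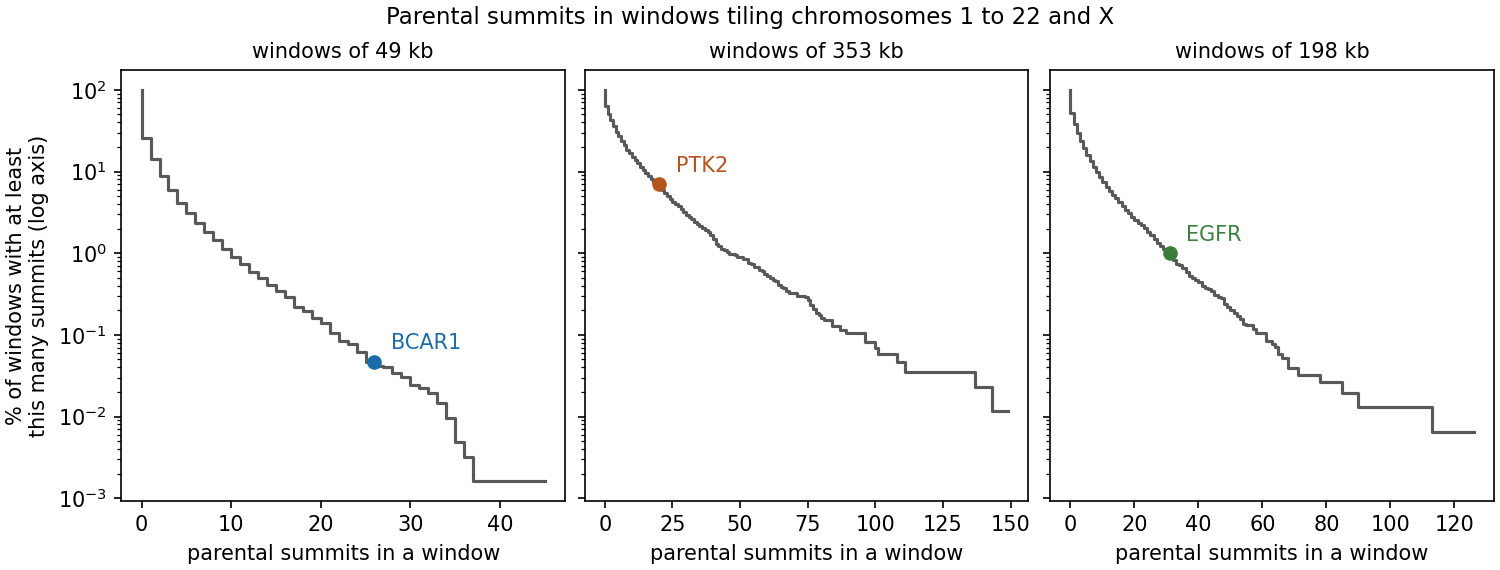
Share of genome windows (y axis, percent, log scale) that hold at least a given number of parental summits (x axis), for windows as long as each widened locus. The points mark the loci: BCAR1 with 26 summits at 0.0468% of windows, PTK2 with 20 at 6.96% and EGFR with 31 at 0.994%.

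Beyond the widened spans the surroundings differed between the genes. In the next 100 kb, BCAR1 had 6 parental summits on its upstream side and 4 downstream (0.6 and 0.4 per 10 kb), below the density of the locus itself. EGFR likewise had 7 upstream and 4 downstream. PTK2 was the reverse, with 40 summits upstream and 35 downstream (4.0 and 3.5 per 10 kb), both above the 0.567 of the locus. By gene order in RefSeq (GRCh38.p14), the nearest coding genes upstream and downstream are DENND3 and AGO2 for PTK2, CFDP1 and CTRB1 for BCAR1, and SEC61G and LANCL2 for EGFR.

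At promoters, taken as 1 kb to either side of the start of the span, PTK2 had 3 parental summits, EGFR 1 and BCAR1 0. Among 280 coding genes with hg19 transcripts at hand, 50.7% carried a parental summit this close to a start. That sample was scored at RefSeq starts and includes BCAR1, which counts there as having one (3 summits). Having a promoter summit, as PTK2 and EGFR did, was about as common in this sample as lacking one.

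PTK2 carried its highest scores at the start. The summit at 142011183, 229 bp inside the gene, scored 12.0, the one at 142010531, 881 bp inside, scored 9.75, and the one at 142011732, 320 bp upstream, scored 9.14. These were the highest 3 of the locus. Of the 142 sampled genes with a promoter summit, 10 had one that scored at least as high. A further 4 summits lay 1998 to 4171 bp upstream, with scores of 2.62 to 4.71. Within 10 kb of the start were 10 of the 20 summits of PTK2, counted upstream only to the 5 kb limit of the widened span. Past that limit the summits went on, the first 3467 bp beyond it with a score of 9.50. The next 100 kb upstream held 40, so the summits at the start adjoin a dense upstream region.

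EGFR had a promoter summit at 55086243, 482 bp upstream of the start, with a score of 5.31. A stronger one at 55087991 scored 12.0, but lay 1266 bp inside the gene and so just outside the window. Within 10 kb of the start were 3 of the 31 EGFR summits, the last being one at 2844 bp with a score of 4.20. That stretch is a small part of the 198.3 kb locus. Per 10 kb, the promoter held 5.0 (0.127 to 27.8) and the body 1.60 (1.08 to 2.29). Most EGFR summits thus lay far from the start, but the second highest score of the gene was near it.

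BCAR1 had no summit within 1 kb of the start of its span. The nearest, at 75300873, was 1078 bp inside the gene and had a score of 1.45. Both RefSeq transcripts of BCAR1 in the hg19 sample start 2046 bp further inside, at 75299905. Around that start there were 3 summits within 1 kb, at 75299770 (135 bp inside, score 4.71), 75299317 (588 bp inside, 4.71) and 75300873 (968 bp upstream, 1.45). Whether BCAR1 counts as having a promoter summit therefore rests on the start chosen.

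**Figure D2:**
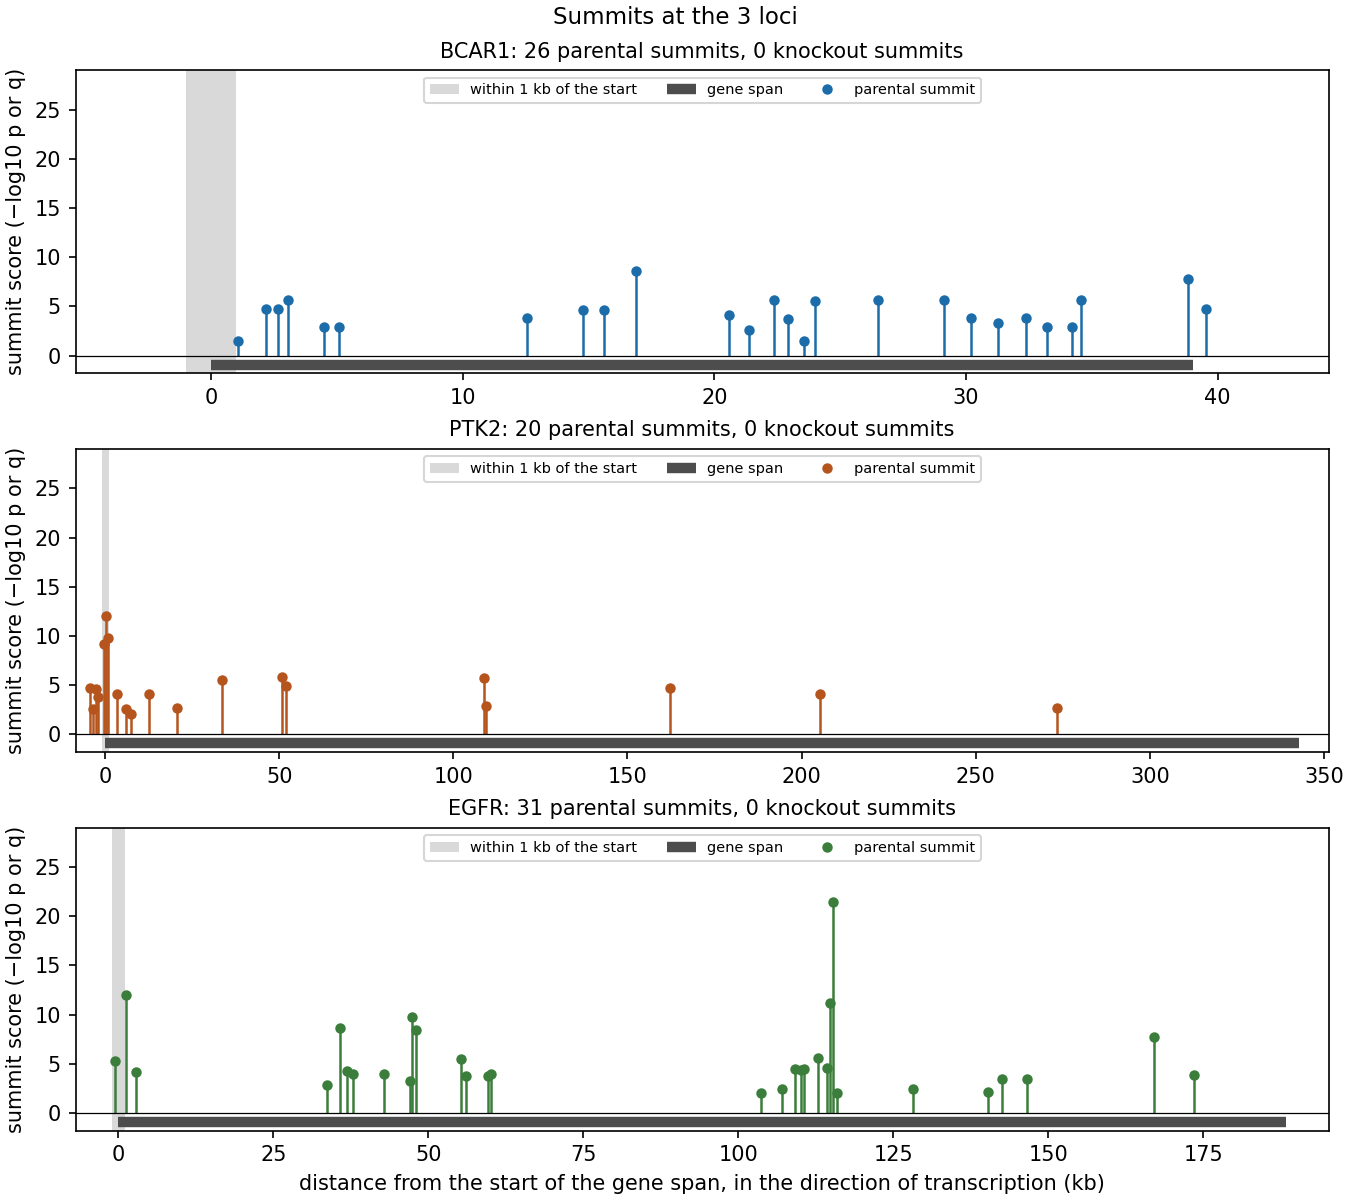
Parental summits at each gene, by distance from the start of the span in the direction of transcription (x axis, kb) and score (y axis, −log10 p or q). BCAR1 summits spread over the gene with scores up to 8.63, and EGFR summits form separate groups, the highest at 21.4. Within the widened span, PTK2 summits gather at the start with scores up to 12.0. The dense region upstream of PTK2 (40 summits in the next 100 kb) is not drawn. No knockout summit lay at any of the loci.

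Gene bodies, the spans beyond 1 kb of the start, held 68 of the 77 summits. Promoters held 4, the 1 to 5 kb upstream 4, all at PTK2, and the 5 kb past the end 1, at BCAR1 (75262410, score 4.71). That BCAR1 summit is past the end of the span used here, but lies in an exon of the RefSeq models. These reach further at that end, to 75262079. The body of BCAR1 had 25 (6.58 per 10 kb, 4.26 to 9.71), that of EGFR 30 (1.60, 1.08 to 2.29) and that of PTK2 13 (0.380, 0.202 to 0.650). In PTK2 the promoter density of 15.0 per 10 kb (3.09 to 43.8) was higher than that of its body. The promoter density was 5.0 (0.127 to 27.8) in EGFR and 0 (0 to 18.4) in BCAR1. These parts are cut from the start of the span. Within 1 kb of its RefSeq start BCAR1 had 3 summits, as many as PTK2 had at its promoter, and they count as body here. None of these differences was tested. With 0 to 3 summits in 2 kb, promoter densities of single genes are known only within wide limits.

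**Figure D3:**
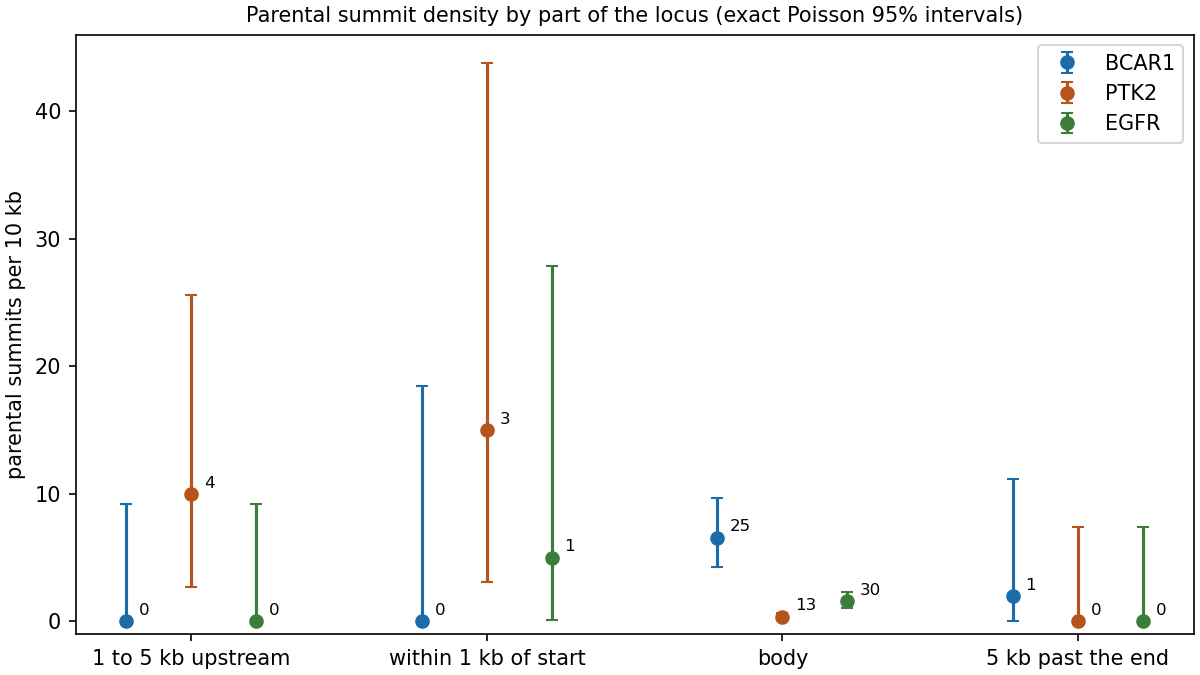
Parental summits per 10 kb (y axis) in 4 parts of each locus (x axis), with exact Poisson 95% intervals as bars and the number of summits beside each point. PTK2 is high at the start (15.0) and low in the body (0.380). BCAR1 has 0 summits at the start of its span and 6.58 per 10 kb in its body. The contrast depends on the start used: within 1 kb of its RefSeq start BCAR1 has 3 summits, drawn here as body.

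In BCAR1, summits were spread over the whole body. Cut into 4 equal parts of 9.51 kb, the body held 6, 4, 8 and 7 summits from the start onward. The median distance between neighbours was 1010 bp and the largest gap was 7.47 kb. The highest score, 8.63, lay at 75285074, 16.9 kb inside the gene, and the next, 7.77, at 75263117 near its end. The score of 5.68 was shared by 5 summits, among them those at 75267388, 75272813 and 75275452. No BCAR1 summit reached 10, a score reached by 6.27% of the parental list. Set on the RefSeq transcripts, 21 summits fell in introns and 4 in exons (6.26 per 10 kb, 3.87 to 9.57, and 9.35, 2.55 to 23.9). The summit at 75262410, past the end of the span, is among those in exons.

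PTK2 thinned out along its length. The 4 equal parts of its body, 85.5 kb each, held 8, 3, 1 and 1 summits from start to end, and the largest gap was 67.9 kb. The highest body scores were 5.81 at 141960658, 50.8 kb inside the gene, and 5.68 at 141902553, 108.9 kb inside. All 13 body summits scored below the 3 at the promoter.

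**Figure D4:**
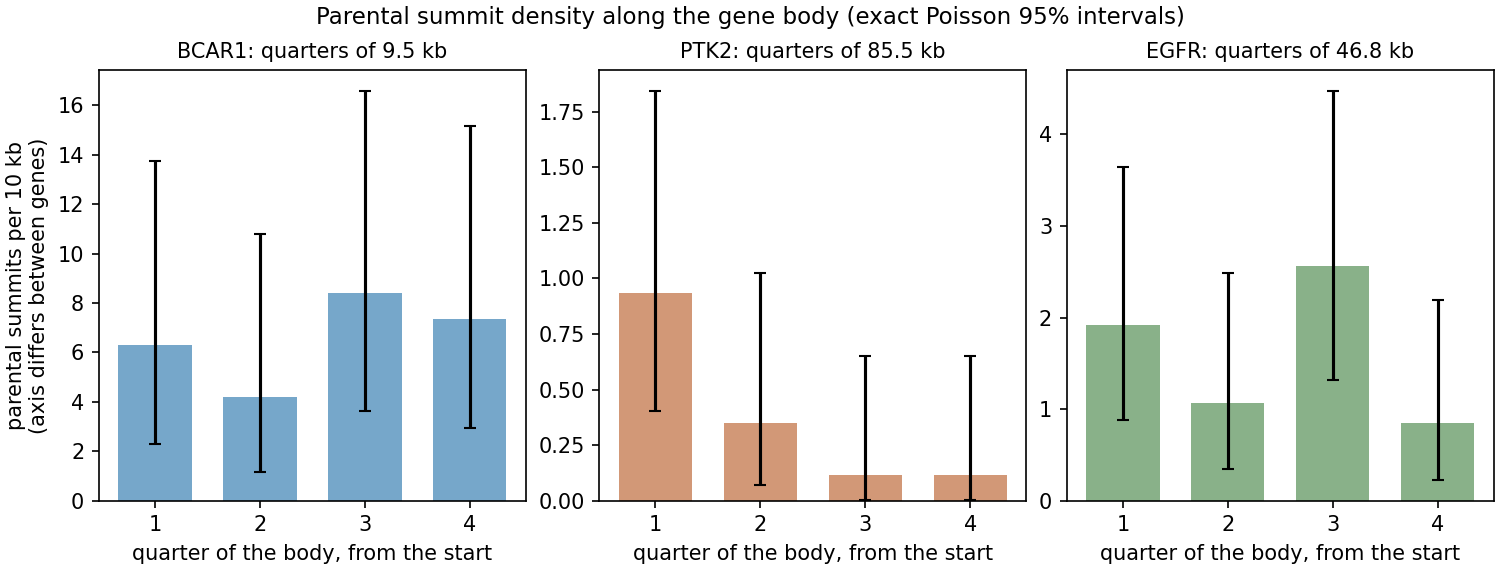
Parental summits per 10 kb (y axis, a different scale for each gene) in 4 equal parts of each gene body, from the start (x axis), with exact Poisson 95% intervals. BCAR1 holds 6, 4, 8 and 7 summits, PTK2 8, 3, 1 and 1, and EGFR 9, 5, 12 and 4.

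EGFR summits came in groups, some of them separated by long gaps. With neighbours at most 5 kb apart, a rule set after the positions were seen, there were 5 groups of 3 or more. The group at the start held 3 summits. A second, 33.7 to 48.0 kb inside the gene, held 8, with scores of 9.75 at 55134100 and 8.63 at 55122464. A smaller one of 4 followed at 55.3 to 60.1 kb. With gaps up to 10 kb allowed, it joined the second, and 4 groups of 3 or more remained. The gap of 43.5 kb after it was the largest of the gene. The next group, 103.6 to 115.9 kb inside, held 10 summits, among them the highest of all 3 loci. This summit, at 55201952, scored 21.4 (rank 242 of 45924), and its neighbour at 55201436 scored 11.2. A last group of 3 lay at 140.3 to 146.6 kb, with scores up to 3.48. The other 3 summits stood alone. By the same 5 kb rule BCAR1 had 2 groups, of 6 and 20 summits, and with gaps up to 10 kb only 1. Exons and introns of EGFR and PTK2 were not analysed here; RefSeq (GRCh38.p14) also lists EGFR-AS1, an antisense RNA gene, overlapping EGFR, and MIR151A, a microRNA gene, overlapping PTK2.

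Scores of the 3 genes lay near those of the whole list. Median scores were 4.35 in BCAR1, 4.35 in PTK2 and 4.20 in EGFR, against 3.79 for all parental summits. A score of at least 5 was reached by 24 of the 77 (31.2%), and by 29.7% of the whole list. A score of at least 10 was reached by 4 of the 77 (5.19%), 3 in EGFR and 1 in PTK2, against 6.27% of the list. Scores of 10 or more were thus no commoner here than in the list.

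None of the 3 genes had a knockout summit. The nearest lay 668.5 kb from an EGFR summit, 2343 kb from PTK2 and 6964 kb from BCAR1. A knockout summit was also rare elsewhere: 0.546% of windows of BCAR1 length, 3.46% of PTK2 length and 2.08% of EGFR length held one. Over the whole parental list, 0.636% of summits had a knockout summit within 200 bp, a share at which 77 summits would give 0.490. The count of 0 of 77, which allows a share of up to 3.90% if a floor of 3 summits is taken, is therefore near the background and shows nothing particular to these genes. Of parental summits scoring at least 10, 6.08% (5.23 to 7.01) had a knockout summit within 200 bp, and 0 of the 4 here did.

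Other sampled coding genes of similar length were mostly sparser. Of 109 with a length within 2 times that of BCAR1, none was as dense, and their median was 0.294 per 10 kb. For EGFR, 2 of 46 were at least as dense, and for PTK2 1 of 26. With the same promoter state, the genes nearest in density in the single parental library were MED24, a Mediator subunit (16 summits, 3.53 per 10 kb), and FGD3 (6 summits, 0.836) for BCAR1. That match takes BCAR1 at the start of its span, without a promoter summit, while the sampled genes are scored at RefSeq starts. With its own RefSeq start, an alternative chosen after seeing the data, the nearest were EPN1 (10 summits, 3.27) and BTD (17 summits, 3.05) instead. For EGFR they were CTBP2, a corepressor (31 summits, 1.66), and FKBP5, which regulates glucocorticoid receptor complexes (39 summits, 2.36). For PTK2 they were NFIA, a transcription factor (8 summits, 0.205), and LMBR1 (4 summits, 0.177). The difference in density was 0.101 per 10 kb for CTBP2 against EGFR and 1.77 for MED24 against BCAR1.

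Of 56 other adhesion and EGFR family genes listed for comparison, such as SRC, PXN and ERBB2, only ARHGEF7 had hg19 coordinates at hand. ARHGEF7, an exchange factor for RAC and CDC42, had 1 parental summit in its widened span, none within 1 kb of a start, and no knockout summit. The sample also held adhesion genes outside that list, of which a few are given here, picked after their values were seen. CTTN, which encodes the actin-binding SRC substrate cortactin, had 4 parental summits, 2 of them within 1 kb of a start, with scores there up to 6.66. CAV1, which encodes the membrane scaffold caveolin-1, had 4, of which 3 were at a start (up to 6.70). ITGB8, an integrin subunit, had 2, both at a start (up to 4.71). Other adhesion genes of the sample went the other way: TES, JAM2 and NCAM2 had 0 parental summits in their widened spans. Over all sampled coding genes, 50.7% had a promoter summit, so these picks show no trait of adhesion genes. CTTN, CAV1, ITGB8, TES, JAM2 and NCAM2, like ARHGEF7, had no knockout summit in their widened spans. Only 3 of the 280 sampled coding genes had one, so these zeros are near the background. The other genes of the list of 56, SRC, PXN and ERBB2 among them, were not analysed here.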

How the data were processed

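The 2 samples were grouped by the genotype in the labels. Per the submitters' processing notes, the build was hg19 and the tools were MACS2 2.0.10, Picard 1.127, Bowtie2 2.2.3 and FastQC 0.11.2. Their roles and settings, the control library and the depth were not given in the sources used here. The authors deposited 1 summit list per library, not pooled, with a −log10 p or q value per summit; no source says which, and scores depend on depth. The lowest parental score, 1.31, lies just above the −log10 of 0.05 (1.30).

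Spans came from the definition of the loci. Positions are 1-based hg19. Regions follow the strand: promoter within 1000 bp of the start, body beyond it, and flanks of 5000 bp. Intervals are exact (Poisson, Clopper-Pearson) at 95%. The limit for a count of 0 is 3 counts of the total. Chromosome lengths and bands came from circlize 0.4.16, and hg19 transcripts (RefSeq identifiers for coding genes) from the example set of pyranges 0.1.4, not known to be a random sample. That set names no build and was read as hg19, since its BCAR1 models overlap the hg19 span and start 2046 bp from its start. GenomicFeatures 1.54.1 added none of the listed pathway genes. Counting was tested on planted positions. The members and lists were chosen with earlier results of these data known. Named summits are all promoter summits and the 5 highest of each locus (ties by position). Named genes alike are the 2 nearest in density with the same promoter state and a length within 2 times (for BCAR1 also with its RefSeq start). Software was matplotlib 3.10.9, scipy 1.17.1, numpy 2.4.6, pandas 2.3.3 and Python 3.11.15. Alternatives covered flanks, score minimums, merging, promoter windows, the BCAR1 start and the tiling. No test across libraries was possible.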

Additional observations from a re-analysis of the deposited data

How the results depend on the processing

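No paired analysis was possible because only 1 library, named replicate 2 in its peaks, represented each genotype here. Of the alternatives to the main results, 63 held (counts within 1.5 times, other values inside the 95% interval) and 22 did not. Among the 63 were all 26 alternatives for knockout counts, which gave 0, as most windows of these lengths did. The limits of 1000 and 5000 bp for a knockout summit nearby, also 0, were among the 63 too. Such zeros say little about how firm the other results are. By construction, a score of at least 5 left 8 parental summits at BCAR1, 6 at PTK2 and 10 at EGFR, and at least 10 left 0, 1 and 3. Promoter summits within 2000 bp were 1 at BCAR1 and 2 at EGFR; within 5000 bp they were 5 at BCAR1, 8 at PTK2 and 3 at EGFR; from the RefSeq start BCAR1 had 3. The share of windows at least as full, for BCAR1, PTK2 and EGFR in turn, was 0.200%, 7.90% and 1.18% with scores of at least 5, 0%, 7.73% and 0.374% on the gene's own chromosome, and 0.180%, 10.9% and 1.90% among windows that held a summit. With summits within 500 bp merged, an alternative added after seeing the data, it was 5.86% for PTK2. For scores and merging the cause was not tested. Read depth, which is unknown, limits every comparison of the lists.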
